A study of Homo sapiens with 6 samples.

Results

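End joining genes of DNA break repair were followed after ANP32B knockdown in RKO cells, a human colorectal cancer cell line. The genes were chosen by name, as the entries for XRCC4, XRCC5, XRCC6, PRKDC, LIG4, NHEJ1, DCLRE1C, TP53BP1, RIF1 and POLQ. All 10 were found among the 61204 entries of each sample, and all 10 passed the filter on low values. RNA-seq values were available for 3 samples transfected with siANP32B (labelled ANP32B knockdown) and 3 samples transfected with siCtrl (labelled ANP32B wild type). Both groups were RKO cells grown in RPMI-1640 medium with serum and transfected with the same amount of small interfering RNA. The sources do not say which siANP32B sequence was used or whether the samples of a group were separate cultures. For the time from transfection to collection the methods give only a general range of days for transfected cells, none for these RNA samples in particular. The p-values thus rest on the spread among these 6 samples alone, and part of that spread may be technical. As a check of the knockdown, ANP32B mRNA was at 72.5, 53.9 and 75.3 FPKM in siANP32B, against 429, 466 and 452 FPKM in siCtrl.

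End joining reseals a broken chromosome without a template. In the classical pathway the Ku70/Ku80 ring, encoded by XRCC6 and XRCC5, slides onto each end and recruits the kinase DNA-PKcs (PRKDC). The nuclease Artemis (DCLRE1C) opens hairpins and trims overhangs, and DNA ligase IV (LIG4) seals the ends with its scaffolds XRCC4 and XLF (NHEJ1). 53BP1 (TP53BP1) and its effector RIF1 hold off the resection that would commit a break to homologous recombination. Polymerase theta (POLQ) joins ends that have been resected, through short stretches of microhomology. In vertebrates classical end joining works through interphase, whereas polymerase theta acts mainly from S phase into mitosis.

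The values were FPKM, fragment numbers scaled for gene length and for the total of the sample. The samples held 14577044 to 16393123 fragments in siANP32B and 14304093 to 18987041 in siCtrl. Here log2(FPKM + 1) was compared by limma for the 13945 genes whose mean reached 1 FPKM, and a gene was called at a Benjamini-Hochberg adjusted p under 0.05. Of these genes, 39.2% were called, with 3437 (24.6%) lower and 2031 (14.6%) higher in siANP32B. Higher genes made up 37.1% of the calls, and 51.2% with median-of-ratios scaling and 58.2% with upper-quartile scaling. The median log2 fold change of all genes was -0.06 as deposited and 0.001 with median-of-ratios scaling. Within siCtrl, replicate 1 differed from replicates 2 and 3 with a chi-square of 7.09 and 6.15 per degree of freedom, where sampling noise alone gives about 1. For the other pairs within a group it was 3.44 to 3.89. Of 8 colorectal epithelial markers, EPCAM, KRT8, KRT18 and CDX2 were above 1 FPKM in every sample. KRT19 was at 0 in all samples, and CDH1, VIL1 and KRT20 were at or near 0. The lymphoid markers PTPRC, CD3E and MS4A1 were at 0 in every sample. The summed level of 6 lymphoid markers was 0.735 to 0.894 FPKM in siANP32B and 1.01 to 1.32 FPKM in siCtrl, and that of 4 stromal and endothelial markers, nearly all COL1A1, was 1.26 to 2.27 FPKM in siANP32B and 3.02 to 4.31 FPKM in siCtrl. Their part in the results was not tested.

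Of the 10 end joining genes, 5 were lower after ANP32B knockdown and none was higher by limma. Without adjustment (p under 0.05) 0 were higher, as with limma-voom. POLQ fell by 43.9%, XRCC4 by 32.7% and DCLRE1C by 26.6% of the siCtrl mean, whereas LIG4 fell by 13.3% and XRCC6 by 7.23%. XRCC5, PRKDC, NHEJ1, TP53BP1 and RIF1 were not called. The 5 of 10 that were lower compare with 24.6% of all tested genes, and the median log2 fold change was -0.12, against -0.06 for all tested genes. The groups did not overlap for the same 5 genes. Over all tested genes the groups did not overlap in 51.1%, and in 31.8% with siANP32B lower. The count of lower genes among the 10 was 3 with median-of-ratios or upper-quartile scaling and 2 without the filter on low values. It was 3 without siANP32B replicate 1, siCtrl replicate 1 or siCtrl replicate 3. The count over all genes fell as well. It was 2560 of 13945 with median-of-ratios scaling, 2216 of 13945 with upper-quartile scaling and 2657 of 29755 without the filter. Of the 13945 genes, 2961 were lower without siANP32B replicate 1, 2755 without siCtrl replicate 1 and 2756 without siCtrl replicate 3. XRCC4 and POLQ were called under all 14 alternatives, DCLRE1C under 12, XRCC6 under 5 and LIG4 under 4.

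**Figure D1:**
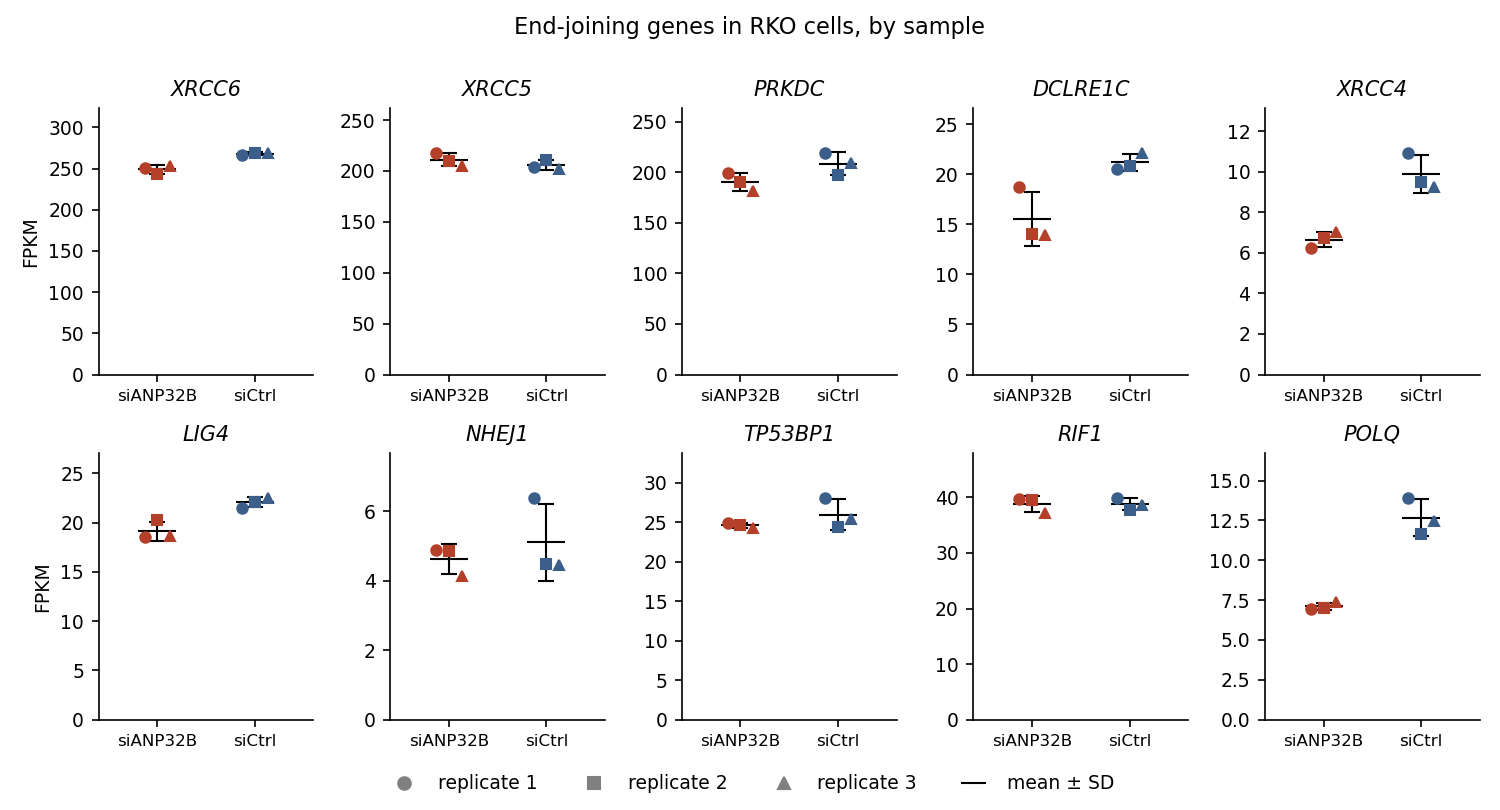
FPKM of each of the 10 end joining genes in the 3 siANP32B samples (red) and the 3 siCtrl samples (blue), with marker shape for the replicate and bars for mean ± SD; each y axis starts at 0. POLQ lay at 6.94 to 7.38 FPKM in siANP32B, against 11.6 to 13.9 FPKM in siCtrl, while the RIF1 groups overlapped.

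The promoters of POLQ and XRCC4, the genes with the largest falls, and of RIF1, whose group means were nearly equal, are shown for comparison. Each runs from 250 bases before to 50 bases after the RefSeq start (GRCh38.p14), 5′ to 3′ along the gene's strand. POLQ is chr3:121545939-121546238 on the reverse strand, XRCC4 is chr5:83077297-83077596 on the forward strand and RIF1 is chr2:151409652-151409951 on the forward strand. Capitals mark matches on either strand to the motifs that follow. The E2F site, known from promoters of S phase genes, was searched for as TTTNGCGC alone. Other spellings of it were not searched for, so a window with no match may still hold another form. A CHR element, known from promoters of G2/M genes, was TTTGAA or TTCGAA. The CCAAT box was searched for by the letters of its name. The GC box was GGGCGG, which Sp1 binds. The ETS site, bound by ETS family factors, was CCGGAAG. An NRF1 site was searched for as well and is absent from these 3 windows.
POLQ: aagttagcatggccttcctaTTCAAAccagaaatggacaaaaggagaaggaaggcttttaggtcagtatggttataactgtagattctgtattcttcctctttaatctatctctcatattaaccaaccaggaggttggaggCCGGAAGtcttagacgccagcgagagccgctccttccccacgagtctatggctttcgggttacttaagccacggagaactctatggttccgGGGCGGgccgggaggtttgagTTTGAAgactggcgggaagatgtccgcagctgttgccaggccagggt
XRCC4: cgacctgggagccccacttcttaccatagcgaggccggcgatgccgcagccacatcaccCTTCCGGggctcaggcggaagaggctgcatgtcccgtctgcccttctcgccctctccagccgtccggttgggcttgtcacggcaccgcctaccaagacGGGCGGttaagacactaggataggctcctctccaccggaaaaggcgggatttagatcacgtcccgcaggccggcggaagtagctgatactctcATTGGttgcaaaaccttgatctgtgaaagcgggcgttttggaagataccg
RIF1: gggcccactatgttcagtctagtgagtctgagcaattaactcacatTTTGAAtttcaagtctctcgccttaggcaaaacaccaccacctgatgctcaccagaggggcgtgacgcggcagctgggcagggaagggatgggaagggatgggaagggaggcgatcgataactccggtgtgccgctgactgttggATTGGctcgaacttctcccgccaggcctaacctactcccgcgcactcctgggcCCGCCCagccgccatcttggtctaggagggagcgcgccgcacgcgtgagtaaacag
No base of these 3 windows lies in more than 1 match. The POLQ window holds a CHR match that begins at base 4 after the start and another at -230, besides a GC box and an ETS site. The XRCC4 window holds a CCAAT box that begins at the first base after the start, a GC box and an ETS site. The RIF1 window holds a CCAAT box, a GC box and a CHR match at -204. Promoters were on hand for 8 of the 10 genes, in 14 windows. A CHR match was found in POLQ and RIF1 alone of the 8, and an E2F match in XRCC6 alone. Over 35116 promoter windows of the same length, 16.4% hold a CHR match, 1.79% an E2F match, 34.6% a CCAAT box, 45.0% a GC box, 10.3% an ETS site and 5.78% an NRF1 site. These shares are per single window, whereas LIG4, DCLRE1C and NHEJ1 have several windows each and so more chances of a match. In at least 1 window, the GC box was in all 8 genes, the CCAAT box in 6, the ETS site in 5 and the NRF1 site in LIG4 and NHEJ1.

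Of the end recognition genes, XRCC6 was lower by a small margin, and XRCC5 and PRKDC were not called. XRCC6, which encodes Ku70, was at 250, 243.5 and 253 FPKM in siANP32B, against 266, 269 and 269.5 FPKM in siCtrl. The siANP32B samples all lay below the siCtrl samples. The mean was 249 ± 4.98 FPKM in siANP32B and 268 ± 1.75 FPKM in siCtrl (S.D., n = 3 each), with a log2 fold change of -0.11 (standard error 0.03, adjusted p = 0.0323 from limma). With median-of-ratios scaling its log2 fold change was -0.04 and it was not called. The call was also lost without siANP32B replicate 1 or 2 or any 1 of the siCtrl samples (adjusted p = 0.0568 to 0.108 from limma).
XRCC5, which encodes Ku80, was at 218, 210 and 205 FPKM in siANP32B, against 204, 211 and 202 FPKM in siCtrl. The groups overlapped, and the log2 fold change was 0.04 (95% interval -0.05 to 0.13, adjusted p = 0.478 from limma). It was called higher with upper-quartile scaling alone of the 14 alternatives, at 0.145.
PRKDC, the DNA-PK catalytic subunit that Ku recruits, was at 199, 190 and 182 FPKM in siANP32B, against 219, 197 and 209 FPKM in siCtrl. The siANP32B replicate 1 lay above siCtrl replicate 2, so the groups overlapped. Its log2 fold change was -0.13 (95% interval -0.25 to -0.01, adjusted p = 0.0715 from limma), and it was called lower in 4 of 14 alternatives, among them limma-voom and the fit without siCtrl replicate 2 (-0.17).

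The ratio of 2 genes within a sample does not depend on how the sample was scaled. The log2 ratio of XRCC6 to XRCC5 was 0.20, 0.21 and 0.30 in siANP32B, against 0.39, 0.35 and 0.41 in siCtrl. The siANP32B samples all held less Ku70 mRNA relative to Ku80 mRNA, with a mean difference of -0.15 on the log2 scale. For PRKDC to XRCC5, a ratio chosen after the values were seen, the log2 ratio was -0.13, -0.14 and -0.18 in siANP32B, against 0.11, -0.10 and 0.05 in siCtrl. These groups did not overlap either, though siCtrl replicate 2 lay close to siANP32B. Ratios are given as descriptions, with no test, and a ratio shows unequal change but not which gene moved.

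DCLRE1C, the Artemis nuclease, was at 18.7, 14.1 and 13.9 FPKM in siANP32B, against 20.6, 20.9 and 22.2 FPKM in siCtrl. The groups did not overlap, but siANP32B replicate 1 lay nearer to the siCtrl samples than to its own group. The mean was 15.6 ± 2.72 FPKM in siANP32B and 21.2 ± 0.858 FPKM in siCtrl (S.D., n = 3 each), with a log2 fold change of -0.43 (limma standard error 0.11, adjusted p = 0.0113). It was called in 12 of 14 alternatives, and the call was lost without the filter on low values (adjusted p = 0.0504) and when siCtrl replicate 1 was the sole control (adjusted p = 0.153, both from limma). Its log2 fold change was -0.57 to -0.33 over the alternatives.

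Among the ligation genes, the XRCC4 scaffold and its catalytic partner LIG4 fell, while NHEJ1 did not pass the test. XRCC4 was at 6.24, 6.72 and 7.02 FPKM in siANP32B, against 10.95, 9.49 and 9.23 FPKM in siCtrl. Every siANP32B sample lay at least 2 FPKM below every siCtrl sample. The mean was 6.66 ± 0.392 FPKM in siANP32B and 9.89 ± 0.924 FPKM in siCtrl (S.D., n = 3 each), with a log2 fold change of -0.51 (limma standard error 0.10, adjusted p = 0.00331). The fragments behind these values were 159, 166 and 159 in siANP32B, against 323, 211 and 218 in siCtrl.
LIG4 was at 18.5, 20.2 and 18.6 FPKM in siANP32B, against 21.5, 22.1 and 22.5 FPKM in siCtrl. The groups did not overlap, with siANP32B replicate 2 nearest to siCtrl. By limma the log2 fold change was -0.20 with a standard error of 0.06 (adjusted p = 0.0357). It was -0.13 with median-of-ratios scaling, where LIG4 was not called, and the call was also lost without either siANP32B replicate 1 or 3 or any siCtrl sample.
NHEJ1, which encodes the XRCC4-like factor XLF, was at 4.88, 4.87 and 4.14 FPKM in siANP32B, against 6.395, 4.48 and 4.46 FPKM in siCtrl. Only siCtrl replicate 1 lay above all siANP32B samples, and without it the log2 fold change was 0.04 rather than -0.11 (95% interval -0.44 to 0.23, adjusted p = 0.607 from limma with all samples). At 99 to 131 fragments in siANP32B and 105 to 199 in siCtrl, NHEJ1 had the fewest fragments of the 10 genes.

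Within each sample, the log2 ratio of XRCC4 to LIG4 was -1.57, -1.59 and -1.41 in siANP32B, against -0.97, -1.22 and -1.29 in siCtrl. The scaffold was lower relative to the ligase in every siANP32B sample, with a mean difference of -0.36 on the log2 scale. The log2 ratio of NHEJ1 to XRCC4 was -0.36, -0.46 and -0.76 in siANP32B, against -0.78, -1.08 and -1.05 in siCtrl. The groups were separated only narrowly, by siANP32B replicate 3 and siCtrl replicate 1.

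**Figure D2:**
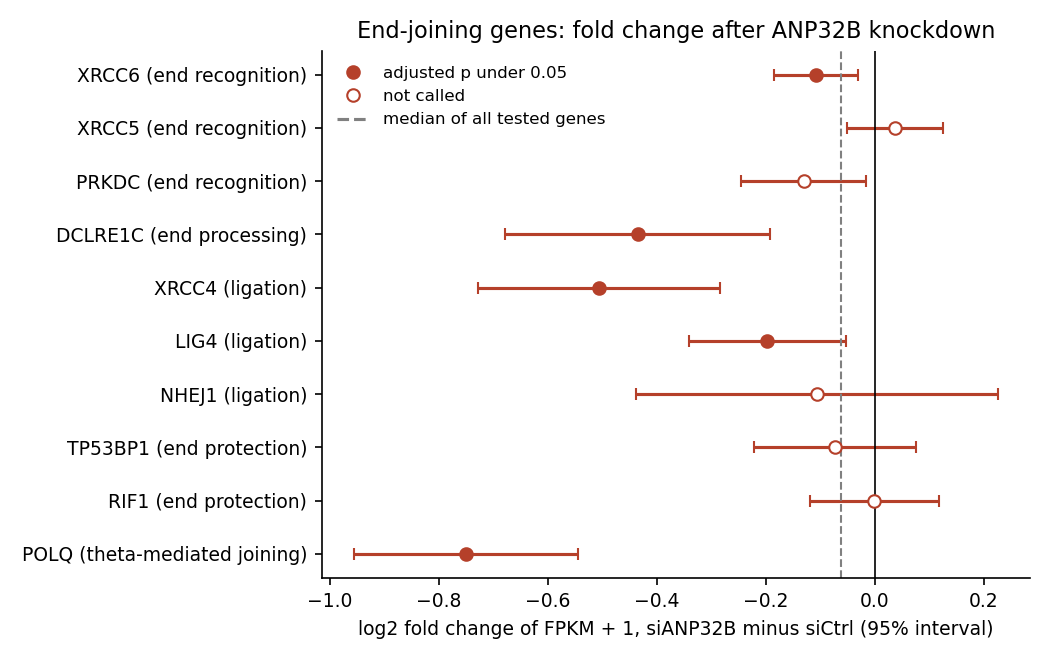
Log2 fold change of FPKM + 1 (siANP32B minus siCtrl) with its 95% interval from limma for the 10 end joining genes, ordered by role; filled points passed an adjusted p under 0.05, the solid line marks 0 and the dashed line the median of all 13945 tested genes, -0.06. POLQ (-0.75), XRCC4 (-0.51) and DCLRE1C (-0.43) lie farthest from 0, and the intervals of XRCC5, NHEJ1, TP53BP1 and RIF1 span 0.

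The end protection genes were not called. TP53BP1 was at 24.9, 24.6 and 24.2 FPKM in siANP32B, against 28.1, 24.3 and 25.5 FPKM in siCtrl. The highest value was that of siCtrl replicate 1, and the other siCtrl samples lay within 1 FPKM of an siANP32B sample. The log2 fold change was -0.07 (95% interval -0.22 to 0.08, adjusted p = 0.417 from limma).
RIF1 was at 39.7, 39.6 and 37.1 FPKM in siANP32B, against 39.9, 37.8 and 38.7 FPKM in siCtrl. Its mean was 38.8 FPKM in both groups, and the 95% interval of the log2 fold change was -0.12 to 0.12 (adjusted p = 0.998 from limma). The log2 ratio of TP53BP1 to RIF1 was -0.67, -0.68 and -0.62 in siANP32B, against -0.51, -0.64 and -0.60 in siCtrl, with overlap between the groups.

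POLQ, the polymerase of microhomology-mediated joining, fell most of the 10 genes. It was at 6.94, 7.03 and 7.38 FPKM in siANP32B, against 13.9, 11.6 and 12.5 FPKM in siCtrl. No siANP32B sample came within 4 FPKM of an siCtrl sample. The mean was 7.11 ± 0.232 FPKM in siANP32B, or 56.1% of 12.7 ± 1.15 FPKM in siCtrl (S.D., n = 3 each). By limma the log2 fold change was -0.75 with a standard error of 0.09 (adjusted p = 2.49e-04), and it was -0.88 to -0.65 over the 14 alternatives. POLQ ranked 915th of 13945 genes by p-value. The fragments were 548, 538 and 518 in siANP32B, against 1273, 802 and 912 in siCtrl. For each of the 5 lower genes, an exact two-sided permutation test over the samples gave p = 0.10, the smallest that 3 samples against 3 allow.
The log2 ratio of POLQ to LIG4, the polymerase of the one route to the ligase of the other, was -1.42, -1.53 and -1.34 in siANP32B, against -0.63, -0.93 and -0.85 in siCtrl. POLQ was thus lower relative to LIG4 in every siANP32B sample, with a mean difference of -0.62 on the log2 scale.

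Genes that mark S phase and G2/M moved in the same samples. Of 12 such genes, chosen with earlier results of these data known, 10 (83.3%) were lower in siANP32B by limma. That compares with 24.6% of all tested genes, and RRM2 and TYMS were not called. All 12 had a negative log2 fold change on the deposited scale. Their summed level was 596 to 637 FPKM in siANP32B, against 884 to 915 FPKM in siCtrl. TOP2A, the topoisomerase that untangles sister chromosomes, had a log2 fold change of -0.87 and CCNA2, the cyclin of S and G2 phase, of -0.88. CDK1, the mitotic kinase, was at -0.72 and MCM2 of the replicative helicase at -0.58. What part they have in the values of POLQ and the other end joining genes was not tested, and in bulk samples fewer cells in a phase and less RNA per cell cannot be told apart. By Pearson's r of log2(FPKM + 1) over the 6 samples, the 5 genes most like POLQ were TWF1, ZNF770, CEP78, NSD2 and BRIP1 (r = 0.998 to 1.00). BRIP1, a helicase that binds BRCA1, was at 14.1 to 14.9 FPKM in siANP32B, against 21.9 to 26.6 FPKM in siCtrl. The samples fall in 2 groups, and 1207 of the 9998 other genes with a symbol whose mean reached 5 FPKM had r above 0.95.

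**Figure D3:**
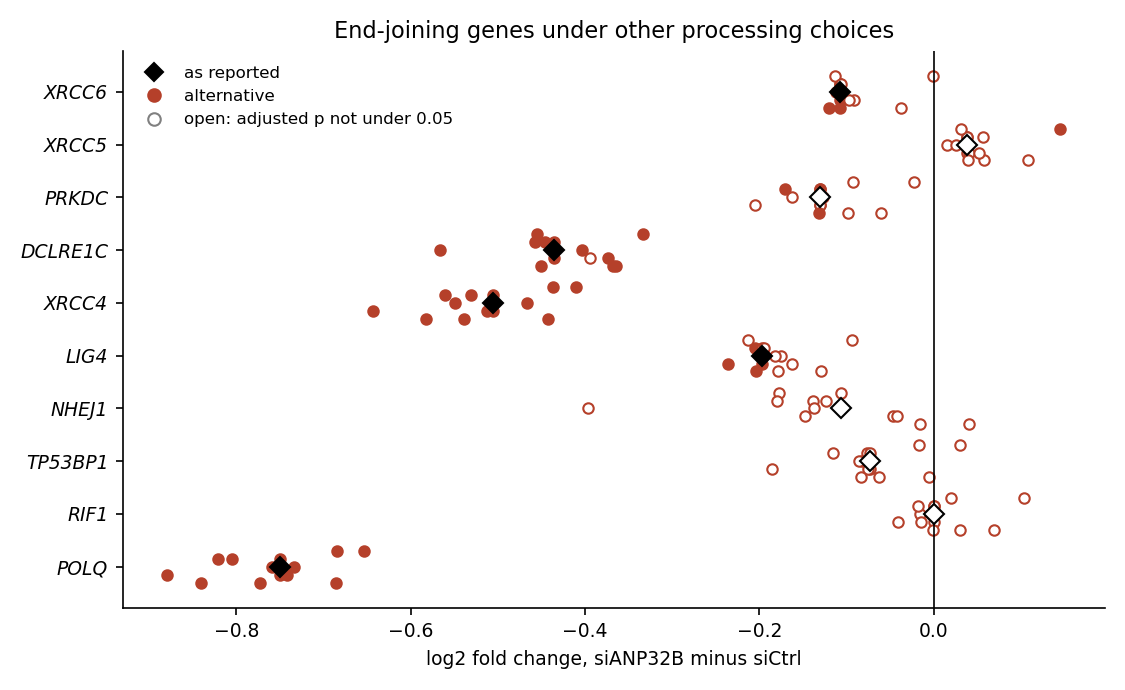
Log2 fold change (siANP32B minus siCtrl) of the 10 end joining genes as reported (diamonds) and under up to 14 other processing choices (circles); open symbols did not pass an adjusted p under 0.05. All symbols of POLQ and XRCC4 are filled, while those of XRCC6, LIG4, DCLRE1C, PRKDC and XRCC5 are partly open. The symbols of RIF1, TP53BP1 and NHEJ1 lie on both sides of 0.

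The other genes of the break repair pathways were taken from 5 lists. Of 13 measured accessory and processing factors of classical end joining, 2 were lower, 1 was higher and 10 were not called, with a median log2 fold change of -0.02. CYREN, a small inhibitor of Ku-dependent joining, fell to 15.65, 14.9 and 17.8 FPKM in siANP32B, against 23.9, 23.1 and 21.9 FPKM in siCtrl (log2 fold change -0.49, adjusted p = 0.00121 from limma). TDP2, which removes topoisomerase from DNA ends, had a log2 fold change of -0.32. WRN, a helicase that binds Ku, had a log2 fold change of 0.23 with an adjusted p of 0.0491 from limma, and its call was lost in 8 of 14 alternatives. PAXX, a structural relative of XRCC4 and XLF, was not called at 75.1, 76.2 and 84.8 FPKM in siANP32B, against 80.5, 82.2 and 81.3 FPKM in siCtrl. DNTT, the template-independent polymerase of lymphocytes, and IFFO1 stayed under the filter.

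Of 19 measured partners of 53BP1, 4 were lower, 3 higher and 12 not called, with a median of -0.10. These shares are near those of all tested genes, 24.6% lower and 14.6% higher. SHLD2, the shieldin subunit that binds single-stranded DNA, rose to 24.8, 23.5 and 22.9 FPKM in siANP32B, against 15.9, 15.3 and 15.55 FPKM in siCtrl. All siANP32B samples were higher by more than 6 FPKM, and limma gave a log2 fold change of 0.57 with a standard error of 0.06 (adjusted p = 1.39e-04). SHLD1 and SHLD3, the other named shieldin subunits, were not called, and MAD2L2 (REV7) was not called at 38.1, 48.3 and 51.8 FPKM in siANP32B, against 47.07, 49.98 and 48.40 FPKM in siCtrl. MDC1, the scaffold that reads phosphorylated H2AX, fell to 14.7, 13.2 and 17.5 FPKM in siANP32B, against 25.15, 27.1 and 29.6 FPKM in siCtrl (log2 fold change -0.82, adjusted p = 3.13e-04 from limma). H2AX itself had a log2 fold change of -0.41. KMT5A, which places the first methyl group on histone H4 lysine 20 that 53BP1 reads once dimethylated, had a log2 fold change of -0.39. KMT5B, a methyltransferase of the same residue that was named after its values were seen, went the other way. It was at 35.2, 33.15 and 33.6 FPKM in siANP32B, against 25.2, 27.0 and 22.9 FPKM in siCtrl (log2 fold change 0.43, adjusted p = 0.00114 from limma). KMT5C was not called. SHLD2, MDC1, H2AX and KMT5A were called under all 14 alternatives.

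Of 10 partners of polymerase theta-mediated joining, 6 were lower, 1 was higher and 3 were not called, with a median of -0.29. FEN1, the flap endonuclease, had a log2 fold change of -0.46, and LIG1, the replicative ligase, fell to 9.22, 11.4 and 12.9 FPKM in siANP32B, against 21.0, 19.9 and 20.3 FPKM in siCtrl. RAD1, a subunit of the clamp that marks damaged DNA, was at -0.40 and XRCC1, the scaffold of ligase III, at -0.42. LIG3, which seals theta-mediated joins and was named after its values were seen, was the higher gene, at 50.5, 48.2 and 46.9 FPKM in siANP32B, against 42.5, 41.3 and 41.9 FPKM in siCtrl (log2 fold change 0.21, adjusted p = 0.00922 from limma).
Of 16 genes of end resection and homologous recombination, the route that competes with end joining, 13 were lower and all 16 had a negative log2 fold change on the deposited scale, with a median of -0.51. BRCA1 fell to 13.7, 13.9 and 12.8 FPKM in siANP32B, against 27.4, 23.3 and 25.2 FPKM in siCtrl. EXO1, the long-range resection nuclease, and BRCA2, a tumour suppressor of homologous recombination, each had a log2 fold change of -0.74, and RBBP8 (CtIP), which starts resection, of -0.48.
Of 8 genes for the kinase family of DNA-PKcs and the TTT complex that stabilises it, 1 was lower and 7 were not called, with a median of -0.02. The lower gene was TTI2, a TTT subunit, at 6.95, 7.81 and 7.63 FPKM in siANP32B, against 9.63, 12.3 and 9.66 FPKM in siCtrl. The other PIKK kinases, among them ATM, ATR and MTOR, were not called. No gene of this list was higher by limma. TELO2 alone was higher at an unadjusted p under 0.05, and 0 were higher by limma-voom. ATM was lower at an unadjusted p of 0.0355 from limma, without overlap between the groups. By limma-voom 2 genes of this list were lower.
Against the 24.6% of all tested genes that were lower, the shares were 15.4% for accessory factors, 21.1% for 53BP1 partners, 60.0% for theta partners, 81.2% for resection and recombination, 12.5% for the kinases and TTT and 83.3% for the S and G2/M phase genes. For the end joining genes it was 5 of 10. No test between the lists was run, and all share the same samples. Members and lists were chosen with earlier results of these data known.

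**Figure D4:**
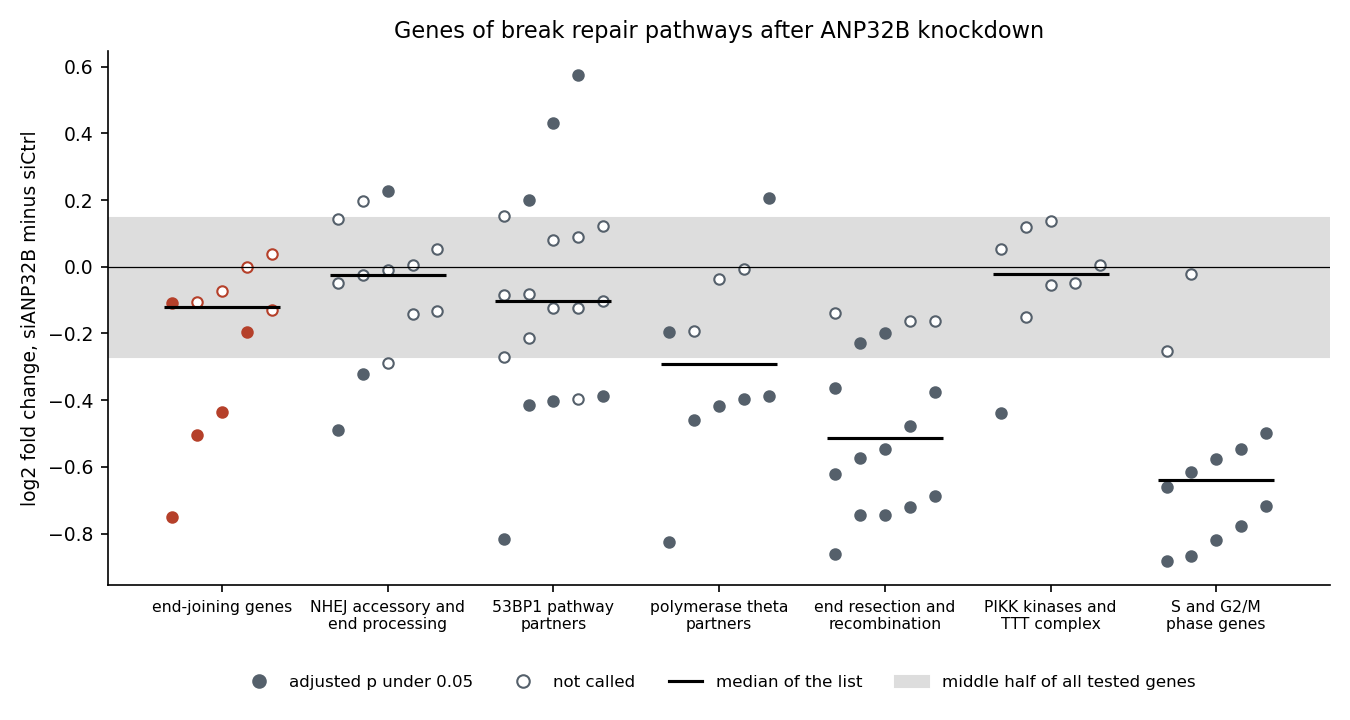
Log2 fold change (siANP32B minus siCtrl) of each tested gene in the 10 end joining genes (red) and 6 lists (grey), with filled points for an adjusted p under 0.05, black lines for list medians and the grey band for the quartiles of all 13945 tested genes (-0.27 to 0.14). The medians are -0.12 for the end joining genes, -0.51 for resection and recombination and -0.64 for S and G2/M phase genes.

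By position, 5 of the end joining genes have a protein-coding neighbour that starts within 1000 bases on the opposite strand and runs the other way (GENCODE 29, GRCh38). These neighbours were looked up after the values were seen. PRKDC (chromosome 8, 47773108 to 47960183, reverse strand) starts 2 bases from MCM4, a subunit of the replicative helicase. LIG4 (chromosome 13, 108207439 to 108218368, reverse strand) starts 11 bases from ABHD13, and XRCC6 (chromosome 22, 41621119 to 41664048, forward strand) 23 bases from DESI1. Each start is the outermost annotated one. Other LIG4 promoter windows, from 108214733 to 108215786, lie inside the gene and farther from ABHD13. The start of XRCC4 (chromosome 5, 83077498 to 83353787, forward strand) overlaps that of TMEM167A by 365 bases, and TP53BP1 starts 230 bases from MAP1A, which stayed under the filter.
All 4 tested neighbours were lower in siANP32B, as were 24.6% of all tested genes, and each kept its call under all 14 alternatives. MCM4 was at 94.8, 95.8 and 95.1 FPKM in siANP32B, against 153, 147 and 161 FPKM in siCtrl, a log2 fold change of -0.68 beside -0.13 for PRKDC. ABHD13 was at 5.47, 5.32 and 4.89 FPKM in siANP32B, against 10.3, 9.13 and 8.50 FPKM in siCtrl, a log2 fold change of -0.73 beside -0.20 for LIG4. DESI1 had a log2 fold change of -0.32 beside -0.11 for XRCC6, and TMEM167A of -0.68 beside -0.51 for XRCC4. In each of these pairs the neighbour had the larger fall. The difference within a pair was not tested, and no exons of a pair overlap.

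**Figure D5:**
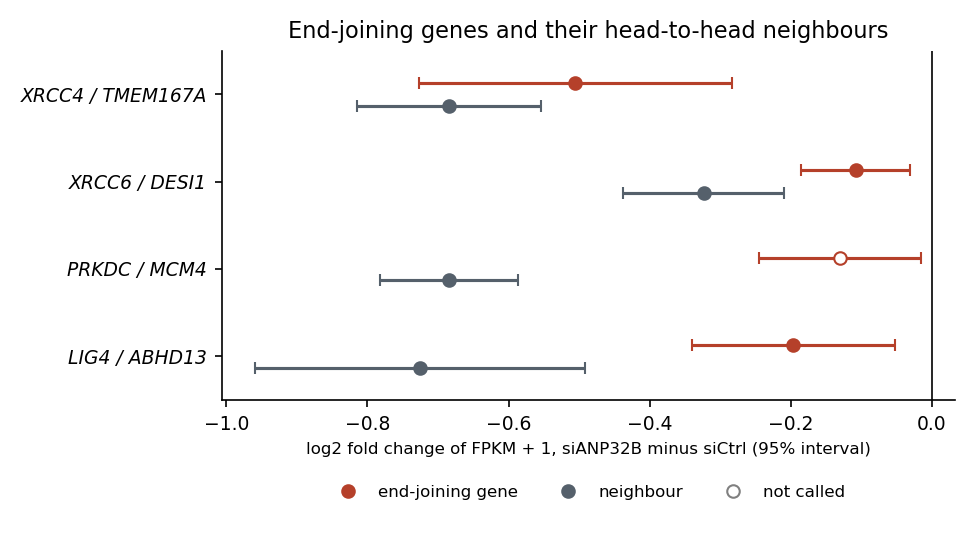
Log2 fold change of FPKM + 1 (siANP32B minus siCtrl) with its 95% interval for 4 end joining genes (red) and the gene that starts head to head with each (grey); the open point, PRKDC, did not pass an adjusted p under 0.05. The neighbours lie at -0.73 to -0.32 and the end joining genes at -0.51 to -0.11.

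The levels of the 10 genes spanned a wide range. In siANP32B their mean FPKM ran from XRCC6 at 249 through XRCC5 at 211, PRKDC at 190, RIF1 at 38.8, TP53BP1 at 24.6, LIG4 at 19.1, DCLRE1C at 15.6, POLQ at 7.11 and XRCC4 at 6.66 to NHEJ1 at 4.63. In siCtrl the order was XRCC6 at 268, PRKDC at 208.5, XRCC5 at 206, RIF1 at 38.8, TP53BP1 at 26.0, LIG4 at 22.1, DCLRE1C at 21.2, POLQ at 12.7, XRCC4 at 9.89 and NHEJ1 at 5.11. In siCtrl, PRKDC and XRCC5 did not differ beyond their spread, and neither did LIG4 and DCLRE1C. In siANP32B, POLQ and XRCC4 overlapped, whereas in siCtrl every POLQ value was above every XRCC4 value.
These levels depend on the gene length that the authors divided by. The FPKM steps imply a length of 2934 bases for PRKDC, near the mean of its 11 annotated transcripts (2938 bases), although its longest coding transcript has 13509 bases. Divided by the longest coding transcript of each gene instead, the means were 41.3 FPKM in siANP32B and 45.3 FPKM in siCtrl for PRKDC, 161 FPKM in siANP32B and 174 FPKM in siCtrl for XRCC6, and 79.2 FPKM in siANP32B and 77.1 FPKM in siCtrl for XRCC5. On that scale PRKDC was below XRCC5 in both groups, and TP53BP1, at 6.77 FPKM in siANP32B and 7.14 FPKM in siCtrl, was below XRCC4 in siCtrl, at 6.10 FPKM in siANP32B and 9.06 FPKM in siCtrl. Fold changes between the groups do not depend on the length, apart from the 1 FPKM added before the logarithm.
Some values are uncertain because genes share bases and the use of strand is not given. TP53BP1 shares 28.7% of its exon bases with TUBGCP4 on the opposite strand, which was at 16.5 to 17.3 FPKM in siANP32B and 15.5 to 18.6 FPKM in siCtrl. NHEJ1 shares 65.4% with the same-strand gene AC068946.1, which stayed under 1 FPKM in all samples. DCLRE1C shares 2.51% with SUV39H2 and RIF1 0.914% with NEB, both on the opposite strand. XRCC6 has 5 named pseudogenes, the highest of which was XRCC6P2 at 0.339 to 1.21 FPKM in siANP32B and 0.422 to 0.838 FPKM in siCtrl.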

How the data were processed

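RNA-seq was measured in 3 siANP32B and 3 siCtrl samples of RKO cells. The deposited values are FPKM per gene, made by the authors out of paired-end sequencing. GRCh38, RSEM, Bowtie2 and DESeq2 appear in the submitters' processing notes. Their versions, the annotation and any filters were not given in the sources used here. RNA extraction was by a kit in the labels and by TRIzol in the methods. The unit was read from the values: FPKM times a whole gene length and a whole total per sample gave whole fragments (tolerance 0.002) in 17961 of 17961 genes above 0 in all samples. The total was the most common value obtained when each gene with a GENCODE 29 exon length was taken to hold 1 fragment. Genes whose exon length then gave whole fragments kept that length. Other genes received the smallest length from 20 to 60000 bases that did, so a gene's fragments can be understated by a whole-number factor. In 9678 genes with at least 5 transcripts, the length so implied was within 1% of the mean transcript length in 63.6%.

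log2(FPKM + 1) was fitted with limma 3.58.1 (trend, no block) in R 4.3.3 for genes whose mean reached 1 FPKM. Checked on simulated data of these 13945 genes with 200 changed, 24.8% of genes changed 1.25-fold were called, 58.8% at 1.5-fold, 81.2% at 2-fold, 95.2% at 4-fold and 0.0466% of unchanged genes. In the real data 39.2% of genes were called. The adjusted p depends on how many genes change, so the threshold was stricter in the simulation. Its rates therefore do not give those of the fit used here. Tables and figures used Python 3.11.15. Members and gene lists were chosen with earlier results of these data known. Named genes were the 10 members, ANP32B, up to 4 called genes with the smallest p per list and the 5 genes most like the member with the smallest p. The 4 tested neighbours were added after their values were seen, and other genes named, such as PAXX, MAD2L2, SHLD1, SHLD3 and TELO2, were chosen after their values were seen. Alternatives were other pseudocounts, filters and scalings, each sample left out, siCtrl replicate 1 as sole control, a replicate block and limma-voom on the fragments. The chi-square between same-group samples was 3.44 to 7.09 per degree of freedom, so none was taken as a repeat library.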

Additional observations from a re-analysis of the deposited data

How the results depend on the processing

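The results were recomputed under 14 alternatives. Of 40 named genes (4 of them the neighbours chosen after their values were seen), 28 kept their direction and their side of the threshold in every alternative that gave a value, POLQ and XRCC4 among them. With upper-quartile scaling 3084 genes were higher and 2216 lower, whereas siCtrl replicate 1 as the sole control gave 1209 higher and 1899 lower. Of the 10 end joining genes, 2 were lower without the filter, 3 with median-of-ratios scaling and 3 with upper-quartile scaling (which also called 1 higher, XRCC5). With a filter at a mean of 5 FPKM, which NHEJ1 did not pass, 6 were lower, as were 3225 of all 10030 genes. With limma-voom 6 were lower, as were 3833 of all 13945 genes. Over all genes, 2657 of 29755 were lower without the filter and 2560 of 13945 with median-of-ratios scaling. Leaving out 1 sample gave 3 to 4 lower end joining genes. Of the accessory factors, 0 were higher without the filter, 2 with a filter at a mean of 5 FPKM, 2 with median-of-ratios scaling, 3 with upper-quartile scaling, 0 with the sole control and 2 with limma-voom; 0 to 1 were higher with 1 sample left out, and 1 was lower with the sole control. Of the theta partners, 0 were higher with that control. Of the kinases and TTT genes, 1 was higher with median-of-ratios scaling, 2 with upper-quartile scaling and 1 with the sole control, which left 0 lower, while limma-voom called 2 lower and leaving out 1 sample gave 0 to 1 higher. With the sole control that arm holds 1 sample, assumed to vary like the siANP32B samples, and fewer samples are compared, so a call lost there does not show a smaller change.
The sign turned for TP53BP1 with upper-quartile scaling (0.03) and for RIF1 with median-of-ratios (0.069) and upper-quartile scaling (0.104). With 1 sample left out, NHEJ1 ranged from -0.18 to 0.04 and RIF1 from -0.018 to 0.030. None of these was called. The cause was not tested.
Same-numbered samples of the 2 groups did not deviate together (r = 0.021, -0.006 and -0.003), so the numbers were not taken as pairs. With the replicate number as a block, 2006 genes were higher and 3310 lower, 5 end joining genes were lower (PRKDC called, LIG4 not) and 0 accessory factors were higher. NHEJ1 rests on the fewest fragments of the 10 end joining genes.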
